A study of Homo sapiens with 9 samples.

Results

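The ribosome biogenesis and RNA polymerase I genes described here are 38 named human genes that make, process or assemble ribosomal RNA and its particles. They were found as the probe sets annotated to exactly 1 gene symbol of that list, and 37 of the 38 were measured, by 87 of the 49293 probe sets tested, among 18132 genes in all. GNL3 was not analysed here, because no probe set carried its symbol alone, and 9 further probe sets that pair a member with another symbol were left out. The cells were Y79 by their cell-line tag (Y97 in some of the other labels), an established human retinoblastoma cell line grown in RPMI medium, with RNA hybridised as biotin-labelled cRNA to Affymetrix expression arrays. There were 3 groups of 3 arrays: GNPs-HDM2, cells treated with an HDM2 (human double minute 2) peptide on gold nanoparticles; GNPs, cells treated with bare gold nanoparticles; and Control, untreated cells. HDM2 is the ubiquitin ligase that binds p53. All groups share the 1 cell line, and none of the sources used here gives the peptide's sequence, the dose, the time or the culture behind each array. P-values therefore speak only for the variation among these arrays, part or all of which can be technical.

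Ribosome production begins in the nucleolus. RNA polymerase I, brought to the ribosomal DNA by the factors UBTF, SL1 and RRN3, copies the long precursor of 18S, 5.8S and 28S rRNA. Box C/D and box H/ACA particles, which pair small nucleolar RNAs with methylating or pseudouridylating enzymes, modify the precursor, the U3-containing processome and later factors cut out the small subunit, and a separate set of factors builds the large subunit. Growing tumour cells usually express these genes strongly, MYC proteins are known activators of many of them, and free large-subunit ribosomal proteins are known to bind HDM2.

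The deposited logs, read here as base 2, give each probe set's deviation from its own baseline, so a value is not a level. The floating-point spacing of these values still tells the class of that baseline, here called bright (8 to 16), middle (4 to 8) or dim (2 to 4). The 3 GNPs-HDM2 arrays stood apart from the other 6 over all probe sets. Their SD over all probe sets was 1.25, 1.49 and 0.64, against 0.28 to 0.32 on GNPs arrays and 0.24 to 0.36 on Control arrays. The median bright probe set lay at -1.26, -1.74 and -0.26 on the 3 GNPs-HDM2 arrays, against 0.07 to 0.09 on GNPs arrays and 0.00 to 0.04 on Control arrays. Added hybridization controls averaged 1.68 ± 0.30 in GNPs-HDM2, -0.12 ± 0.37 in GNPs and -0.38 ± 0.05 in Control (SD, n = 3 each), and added poly-A controls 1.28 ± 0.42 in GNPs-HDM2, -0.19 ± 0.33 in GNPs and -0.62 ± 0.67 in Control. Because of this shift by level, each gene's difference from Control is also given after centring every array on the median of each level class, called level-centred below. Array 3 of Control correlated at 0.47 to 0.61 with the 3 GNPs arrays over all probe sets, while array 1 of Control correlated at -0.34 to -0.28. With the 3 GNPs-HDM2 arrays, array 1 of Control correlated at 0.265 to 0.275, array 2 at 0.16 to 0.20 and array 3 at -0.25 to -0.21. The Control arrays thus differed among themselves, with -0.11 between arrays 1 and 3. Of the fixed marker lists, 6 of 13 retinoblastoma and photoreceptor genes had a bright probe set (CRX, OTX2, NRL, PDE6H, RBP3 and MYCN), against 0 of 4 pigment epithelium, 0 of 5 fibroblast, 0 of 4 blood and 1 of 5 glial genes. The photoreceptor list's mean was -0.97 to -0.02 on GNPs-HDM2 arrays, 0.69 to 0.73 on GNPs arrays and 0.24 to 0.82 on Control arrays. The lists of other cell types were higher on the same arrays: pigment epithelium at 0.40 to 1.03 on GNPs-HDM2 arrays, -0.13 to -0.11 on GNPs arrays and -0.08 to 0.05 on Control arrays, fibroblast at 0.30 to 0.90 on GNPs-HDM2 arrays, -0.14 to -0.10 on GNPs arrays and -0.01 to 0.11 on Control arrays, and blood at 0.45 to 0.72 on GNPs-HDM2 arrays, -0.17 to -0.07 on GNPs arrays and -0.02 to 0.07 on Control arrays. The glial list's mean was close to 0 to 0.39 on GNPs-HDM2 arrays, -0.13 to -0.02 on GNPs arrays and -0.04 to 0.20 on Control arrays. Dim probe sets made up 8 of 13 in the pigment epithelium list, 14 of 23 in fibroblast, 11 of 13 in blood and 12 of 24 in glial. In the photoreceptor list 3 of 27 were dim and 11 bright. The median of all dim probe sets was 0.57, 0.73 and 0.20 on the GNPs-HDM2 arrays, -0.07 on GNPs arrays and 0.00 to 0.04 on Control arrays. The part of level in these list means, and of these lists in the results below, was not tested. In bulk RNA, fewer cells of a type and less RNA per cell cannot be told apart.

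With conjugate treatment, 26 of the 37 genes fell relative to untreated cells and 0 rose (limma, Benjamini-Hochberg adjusted p under 0.05 over 18132 genes). Over all genes, 25.1% fell and 33.1% rose. The members' median difference, GNPs-HDM2 minus Control, was -1.12 on the log2 scale with a range from -2.64 for GAR1 to 0.16 for UBTF, while the median over all genes was 0.25. In 24 members all 3 GNPs-HDM2 arrays lay below all 3 Control arrays, against 23.9% of all genes. After level centring, 19 of the 37 fell, all of them among the 26, and 2 rose (POLR1D and UBTF), with a median of -0.62. Over all genes level centring gave 22.1% lower and 24% higher, and moved the median of all genes to 0.07. Each of the 26 genes that fell lay below its Control mean on all 3 GNPs-HDM2 arrays, by amounts that differed widely between genes and are given by role.

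**Figure D1:**
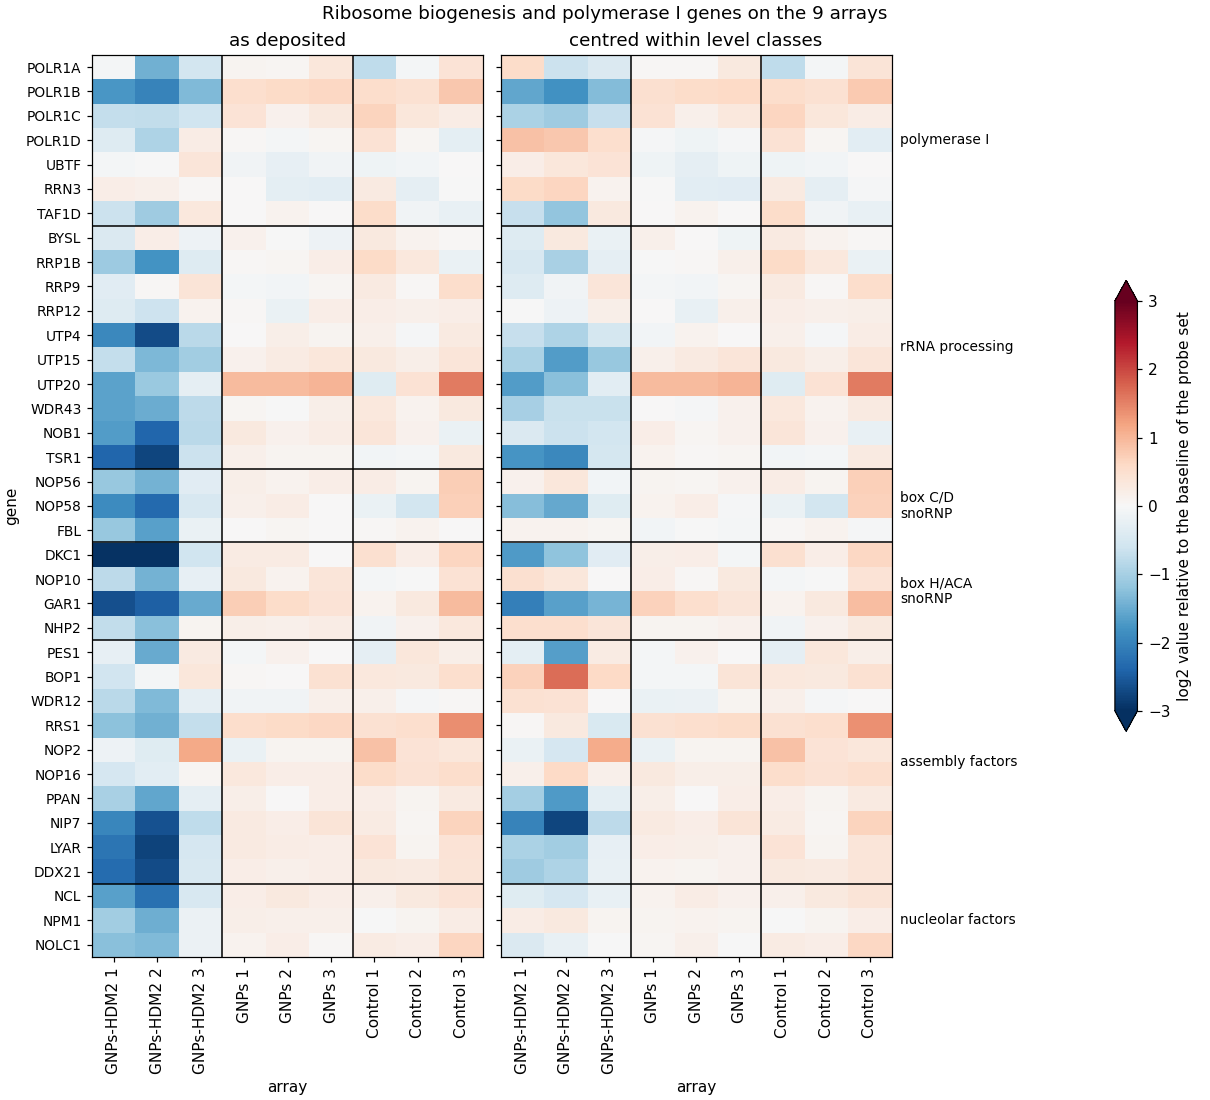
Heat map of the 37 genes (rows, grouped by role) on the 9 arrays (columns: GNPs-HDM2, GNPs, Control), coloured by the log2 value relative to the probe set's baseline on a scale that ends at -3 and 3, as deposited on the left and level-centred on the right. GNPs-HDM2 arrays 1 and 2 are blue for most genes on the left, array 3 is paler, and on the right FBL, NOP10, NHP2, WDR12 and NPM1 are no longer blue while POLR1B, GAR1, NIP7 and TSR1 still are.

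The promoters of the 3 genes with the lowest difference, GAR1, DKC1 and POLR1B, and of the gene with the highest, UBTF, are printed here so that the start regions of genes at both ends of the range can be set side by side. They run from 250 bases before to 50 after the annotated start, 5′ to 3′ on the gene's strand, from RefSeq on GRCh38.p14. Capitals mark matches on either strand to CACGTG (the E-box that MYC proteins bind), CCGGAAG (an ETS-type motif) and GGGCGG (the GC box of SP1-type factors), and adjoining capitals can belong to overlapping matches. GAR1 lies at chr4:109815260-109815559 (+), DKC1 at chrX:154762614-154762913 (+), POLR1B at chr2:112541786-112542085 (+) and UBTF at chr17:44220833-44221132 (-).
GAR1: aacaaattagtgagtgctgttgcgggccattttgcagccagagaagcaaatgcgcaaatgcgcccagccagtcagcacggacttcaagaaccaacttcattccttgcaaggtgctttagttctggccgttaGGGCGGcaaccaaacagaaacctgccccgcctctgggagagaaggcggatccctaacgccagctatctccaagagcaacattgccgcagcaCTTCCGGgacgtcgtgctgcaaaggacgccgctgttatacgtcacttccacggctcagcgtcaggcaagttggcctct
DKC1: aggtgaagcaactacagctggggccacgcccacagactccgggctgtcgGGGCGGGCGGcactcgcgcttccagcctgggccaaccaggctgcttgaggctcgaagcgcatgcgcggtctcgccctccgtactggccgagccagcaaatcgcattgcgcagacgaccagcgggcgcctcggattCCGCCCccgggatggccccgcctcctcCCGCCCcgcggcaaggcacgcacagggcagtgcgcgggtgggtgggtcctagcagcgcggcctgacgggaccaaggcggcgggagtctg
POLR1B: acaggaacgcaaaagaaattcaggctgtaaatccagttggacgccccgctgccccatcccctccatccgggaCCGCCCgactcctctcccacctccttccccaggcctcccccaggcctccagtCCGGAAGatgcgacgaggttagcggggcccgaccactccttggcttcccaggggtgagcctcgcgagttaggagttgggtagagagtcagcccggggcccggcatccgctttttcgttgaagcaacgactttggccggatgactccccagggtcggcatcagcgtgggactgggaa
UBTF: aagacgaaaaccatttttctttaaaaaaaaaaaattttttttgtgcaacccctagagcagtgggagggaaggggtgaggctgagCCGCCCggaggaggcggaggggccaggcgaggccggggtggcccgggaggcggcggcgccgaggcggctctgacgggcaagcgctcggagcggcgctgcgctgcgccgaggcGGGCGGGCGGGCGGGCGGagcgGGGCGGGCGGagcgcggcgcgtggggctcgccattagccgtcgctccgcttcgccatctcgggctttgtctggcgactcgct
GAR1 and POLR1B each held 1 CCGGAAG and 1 GGGCGG match. DKC1 held 4 GGGCGG matches and UBTF 7, most of them close together just before the start, and none of these 4 windows held CACGTG. RefSeq promoters were given for 31 of the 37 members. CACGTG was in 9 of the 31 (29%), against 7.43% of 27305 promoters, CCGGAAG in 13 (41.9%, against 10.7%) and GGGCGG in 22 (71%, against 44.6%). These are counts of letters in a window and say nothing on whether a factor was bound. FBL, NOP10, RRP9 and UTP4 held both CACGTG and CCGGAAG. After conjugate treatment 3 of them fell as deposited, as did 26 of all 37 members. FBL and NOP10 turned positive after level centring, and RRP9 passed the test under neither. Of the other members with CACGTG, UTP20 and WDR43 fell as deposited and BYSL, NOP2 and PES1 were not called. Whether motif and fall go together was not tested.

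Of the 7 polymerase I genes, 2 fell and 5 were not called, with a median of -0.53, where 25.1% of all genes fell. After level centring 2 fell and 2 rose, with a median of -0.020, where 22.1% of all genes fell and 24% rose. POLR1B, which encodes the second-largest subunit of polymerase I, had values of -1.74, -2.0 and -1.33 on the GNPs-HDM2 arrays, against 0.51, 0.57 and 0.61 on GNPs arrays and 0.52, 0.45 and 0.80 on Control arrays. All 3 conjugate arrays lay far below every other array, and the bare-particle and untreated arrays overlapped. The difference from Control was -2.28 ± 0.19 (SE; adjusted p = 0.000376), 4.85-fold lower, and -2.15 after level centring (adjusted p = 0.000157). Its 6 probe sets ranged from -3.13 and -3.28 to -0.61, and the last of these, 11741721_x_at, did not pass the test. POLR1C, a subunit shared by polymerases I and III, had values of -0.72, -0.74 and -0.60 on GNPs-HDM2 arrays, against 0.40, 0.14 and 0.30 on GNPs arrays and 0.66, 0.34 and 0.23 on Control arrays. Averaged over its 3 probe sets, the conjugate arrays were tightly grouped and below all others. The difference was -1.10 ± 0.16 (adjusted p = 0.00183), and -1.31 after level centring (adjusted p = 0.000706). Its probe sets were unlike. Probe sets 11719195_a_at and 11740797_x_at differed from Control by -1.89 and -1.85, and the dim 11761303_a_at by 0.45 (adjusted p = 0.234 over all probe sets). The dim probe set had 0.38, 1.27 and 0.00 on the GNPs-HDM2 arrays.

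The other polymerase I genes did not pass the test as deposited. The largest subunit POLR1A had -0.05, -1.45 and -0.54 on GNPs-HDM2 arrays, against 0.09, 0.06 and 0.33 on GNPs arrays and -0.77, -0.06 and 0.40 on Control arrays, a difference from Control of -0.53 ± 0.37 (adjusted p = 0.22), or -0.020 level-centred. Conjugate and Control arrays overlapped, and Control itself spread over more than 1 log2 unit. The mean of POLR1A also joins unlike probe sets. The bright 11724544_a_at differed from Control by -1.27 (adjusted p = 0.0721 over all probe sets) and the middle 11747136_a_at by 0.20 (adjusted p = 0.635). From GNPs they differed by -1.69 (adjusted p = 0.0201) and 0.01 (adjusted p = 0.985). POLR1D, the other subunit shared with polymerase III, differed by -0.42 ± 0.28 (adjusted p = 0.208) as deposited and by 0.68 after level centring (adjusted p = 0.0178), so its direction depended on the scaling. UBTF, the factor that opens and bends ribosomal DNA for polymerase I, lay at -0.07, close to 0 and at 0.36 on the GNPs-HDM2 arrays, against -0.24 to -0.10 on GNPs arrays and -0.13 to 0.01 on Control arrays. Its difference from Control was 0.16 ± 0.16 (adjusted p = 0.377) and 0.38 after level centring (adjusted p = 0.0255). This mean joins 4 unlike probe sets. As deposited, 11748946_s_at rose by 0.60 (adjusted p = 0.0351 over all probe sets) and 11722385_a_at differed by -0.50 (adjusted p = 0.0738). Level-centred, 11748947_x_at stood at 1.29 (adjusted p = 0.00602) and 11722385_a_at at -0.57 (adjusted p = 0.0419). RRN3, which links polymerase I to its initiation complex, differed by 0.13 ± 0.18 (adjusted p = 0.521), or 0.45 level-centred (adjusted p = 0.0829). TAF1D, a subunit of the promoter selectivity complex SL1, differed by -0.54 ± 0.33 (adjusted p = 0.172), or -0.61 level-centred.

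Of the 10 rRNA processing genes, most of which serve the small subunit, 7 fell and 3 were not called, with a median of -1.42. After level centring the same count of 7 fell, with a median of -0.82. Over all genes 25.1% fell as deposited and 22.1% after level centring. TSR1, a GTPase-like factor of the pre-40S particle, had -2.38, -2.74 and -0.64 on GNPs-HDM2 arrays, against 0.16, 0.07 and 0.09 on GNPs arrays and -0.09, -0.05 and 0.29 on Control arrays. Its difference from Control was -1.97 ± 0.44 (adjusted p = 0.00659) and -1.46 after level centring. UTP4, part of the complex that first joins the precursor, had -1.94, -2.67 and -0.80 on GNPs-HDM2 arrays, against 0.01 to 0.18 on GNPs arrays and -0.03 to 0.27 on Control arrays, a difference from Control of -1.93 ± 0.38 (adjusted p = 0.00418) and -0.83 after level centring. In both genes no conjugate array overlapped another group, and array 3 was the least reduced.

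UTP15, from the same early complex as UTP4, did not follow that order of arrays. It had -0.72, -1.34 and -1.05 on GNPs-HDM2 arrays, against 0.12, 0.25 and 0.35 on GNPs arrays and 0.29, 0.17 and 0.37 on Control arrays, a difference from Control of -1.32 ± 0.18 (adjusted p = 0.00143) and -1.53 after level centring. WDR43, a processome protein known to bind polymerase II promoters as well, had -1.59, -1.48 and -0.79, against 0.07, 0.00 and 0.17 on GNPs arrays and 0.32, 0.12 and 0.29 on Control arrays, a difference of -1.53 ± 0.21 (adjusted p = 0.00145) and -1.02 after level centring. NOB1, the endonuclease that makes the final cut of 18S rRNA, fell by 1.72 on the log2 scale (adjusted p = 0.00417), and fell by 0.62 after level centring. RRP1B, a nucleolar protein that targets a phosphatase, fell by 1.32 (adjusted p = 0.00908), and fell by 0.80 after level centring. Only 1 of its 2 probe sets fell. The bright 11721195_s_at differed by -2.52 (adjusted p = 0.00256 over all probe sets) and the middle 11721194_a_at by -0.11 (adjusted p = 0.816). Level-centred, they stood at -1.42 and -0.18. UTP20, a large processome scaffold, fell by 1.54 (adjusted p = 0.0176; -1.62 level-centred) although its groups overlapped. Its values were -1.61, -1.12 and -0.28 on GNPs-HDM2 arrays, against 0.95, 0.95 and 1.01 on GNPs arrays and -0.37, 0.44 and 1.55 on Control arrays. The Control arrays were spread more widely than for any other member, and without array 3 of Control the difference of -1.04 no longer passed.

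The U3 particle protein RRP9 differed from Control by -0.25 ± 0.21 (adjusted p = 0.314), the export factor RRP12 by -0.48 ± 0.20 (adjusted p = 0.0608) and BYSL, a factor of late small-subunit maturation, by -0.28 ± 0.19 (adjusted p = 0.214). Level-centred, RRP9 stood at -0.32, RRP12 at -0.17 and BYSL at -0.23, none of them called. The mean for BYSL joins probe sets that moved in opposite directions, which are taken up below.

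All 3 box C/D proteins and all 4 box H/ACA proteins fell as deposited, with medians of -1.30 and -1.78. After level centring 1 of 3 and 2 of 4 fell, with medians of -0.20 and -0.68. Over all genes 25.1% fell as deposited and 22.1% after level centring. Most probe sets of these proteins were bright, a class in which 59.1% of all probe sets fell as deposited, with a median of -1.14. DKC1, the pseudouridine synthase dyskerin, had -2.97, -2.96 and -0.61 on GNPs-HDM2 arrays, against 0.26, 0.26 and 0.01 on GNPs arrays and 0.48, 0.21 and 0.65 on Control arrays. Arrays 1 and 2 of the conjugate were far below array 3, which was still under all other arrays. The difference from Control was -2.62 ± 0.53 (adjusted p = 0.0046), 6.17-fold lower, and -1.52 after level centring. One of its probe sets fell by 3.48 and the other fell by 1.76. GAR1, a small protein of the same particle, had -2.64, -2.44 and -1.52 on GNPs-HDM2 arrays, against 0.75, 0.54 and 0.40 on GNPs arrays and 0.09, 0.30 and 0.94 on Control arrays. In this gene mean, no array of another group came near the conjugate's. The difference of -2.64 ± 0.31 (adjusted p = 0.000901), 6.25-fold lower, was -2.13 after level centring. Both of its 2 probe sets fell, but unequally. The middle 11723483_at differed by -1.84, with -1.85, -0.43 and -1.60 on GNPs-HDM2 arrays and 0.10, 0.33 and 1.22 on Control arrays. The bright 11758592_s_at differed by -3.44, with -3.44, -4.45 and -1.43 on GNPs-HDM2 arrays.

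The remaining H/ACA members were less reduced and depended on the scaling. NOP10, the smallest core protein, had -0.79, -1.41 and -0.26 on GNPs-HDM2 arrays, against 0.29, 0.11 and 0.36 on GNPs arrays and -0.06, 0.00 and 0.44 on Control arrays; it fell by 0.94 as deposited (adjusted p = 0.0166) and stood at 0.16 after level centring. NHP2, another core protein, fell by 0.76 (adjusted p = 0.0469) and stood at 0.34 after level centring. Its groups overlapped, with array 3 of the conjugate at 0.09. The call for NHP2 was lost in 8 of the 9 fits that leave out 1 array. Among the C/D proteins, NOP58, one of the scaffold pair, fell by 1.55 (adjusted p = 0.0169) with -1.88, -2.33 and -0.48 on GNPs-HDM2 arrays, against 0.16, 0.22 and 0.00 on GNPs arrays and -0.20, -0.55 and 0.71 on Control arrays. Array 3 of the conjugate lay inside the Control range, and level centring left -1.04 (adjusted p = 0.035). NOP56, its partner, fell by 1.30 (adjusted p = 0.00546) and stood at -0.20 after level centring (adjusted p = 0.379). FBL, the methyltransferase fibrillarin, fell by 1.04 as deposited (adjusted p = 0.0161) and stood at 0.06 after level centring. Its GNPs-HDM2 arrays stood at -1.15, -1.63 and -0.21, against 0.00, 0.05 and 0.01 on GNPs arrays and 0.03, 0.10 and 0.01 on Control arrays, so no groups overlapped with the conjugate's.

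Of the 10 assembly factors, most of them for the large subunit, 7 fell and 3 were not called, with a median of -0.98. After level centring 5 fell, with a median of -0.73. Over all genes 25.1% fell as deposited and 22.1% after level centring. NIP7, an RNA-binding factor of the pre-60S particle, had -1.96, -2.62 and -0.75 on GNPs-HDM2 arrays, against 0.27, 0.21 and 0.38 on GNPs arrays and 0.25, 0.07 and 0.66 on Control arrays. Its difference from Control of -2.10 ± 0.39 (adjusted p = 0.00357) was -2.18 after level centring, the lowest level-centred value of the 37. LYAR, a nucleolar zinc finger protein, and DDX21, an RNA helicase of polymerase I and II transcription and rRNA processing, had nearly the same pattern. LYAR stood at -2.20, -2.78 and -0.51 on GNPs-HDM2 arrays, against 0.28, 0.23 and 0.19 on GNPs arrays and 0.41, 0.08 and 0.40 on Control arrays. DDX21 stood at -2.32, -2.68 and -0.49, against 0.20, 0.15 and 0.21 on GNPs arrays and 0.28, 0.27 and 0.40 on Control arrays. LYAR fell by 2.12 (adjusted p = 0.00583), and fell by 1.02 after level centring; DDX21 fell by 2.14 (adjusted p = 0.00544), and fell by 1.04 after level centring. In both, array 3 of the conjugate stood much nearer to the other groups than arrays 1 and 2 did.

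RRS1, which helps to bring the 5S particle into the large subunit, had -1.22, -1.44 and -0.72 on GNPs-HDM2 arrays, against 0.54, 0.57 and 0.62 on GNPs arrays and 0.46, 0.51 and 1.4 on Control arrays, a difference from Control of -1.92 ± 0.27 (adjusted p = 0.00155) and -0.82 after level centring. The groups were well apart, with array 3 of Control the highest of all. PPAN, a pre-60S processing factor, fell by 1.12 (adjusted p = 0.00956) and by 1.19 after level centring. NOP16 fell by 0.76 (adjusted p = 0.00655) and stood at -0.19 after level centring (adjusted p = 0.317). The 3 proteins of the PeBoW complex, which is needed for 28S maturation, gave unlike values: WDR12 fell by 0.85 as deposited (adjusted p = 0.0162) but stood at 0.25 after level centring, PES1 differed by -0.58 ± 0.38 (adjusted p = 0.203; -0.65 level-centred) and BOP1 by -0.46 ± 0.23 (adjusted p = 0.107), the last of these standing at 0.64 after level centring. NOP2, an rRNA methyltransferase and proliferation antigen, differed by -0.34 ± 0.35 (adjusted p = 0.408; -0.41 level-centred), and array 3 of its conjugate group, at 1.14, was above every other array.

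All 3 nucleolar factors fell as deposited, with a median of -1.28, and 2 of the 3 after level centring, with a median of -0.57. Over all genes 25.1% fell as deposited and 22.1% after level centring. Most probe sets of these factors were bright, a class in which 59.1% of all probe sets fell as deposited, with a median of -1.14. NCL, the abundant histone-binding protein nucleolin, had -1.63, -2.25 and -0.49 on GNPs-HDM2 arrays, against 0.21, 0.28 and 0.20 on GNPs arrays and 0.16, 0.28 and 0.42 on Control arrays. The 3 conjugate arrays were below all others, the difference was -1.75 ± 0.36 (adjusted p = 0.00491), and -0.64 was left after level centring (adjusted p = 0.00416). NOLC1, a chaperone of small nucleolar particles, fell by 1.28 (adjusted p = 0.00678) and by 0.57 after level centring. NPM1, nucleophosmin, which exports ribosomal particles and can bind HDM2, fell by 0.99 as deposited (adjusted p = 0.0148) and stood at 0.11 after level centring. NPM1 has many near-identical copies in the genome, so its probe sets may read more than 1 gene.

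**Figure D2:**
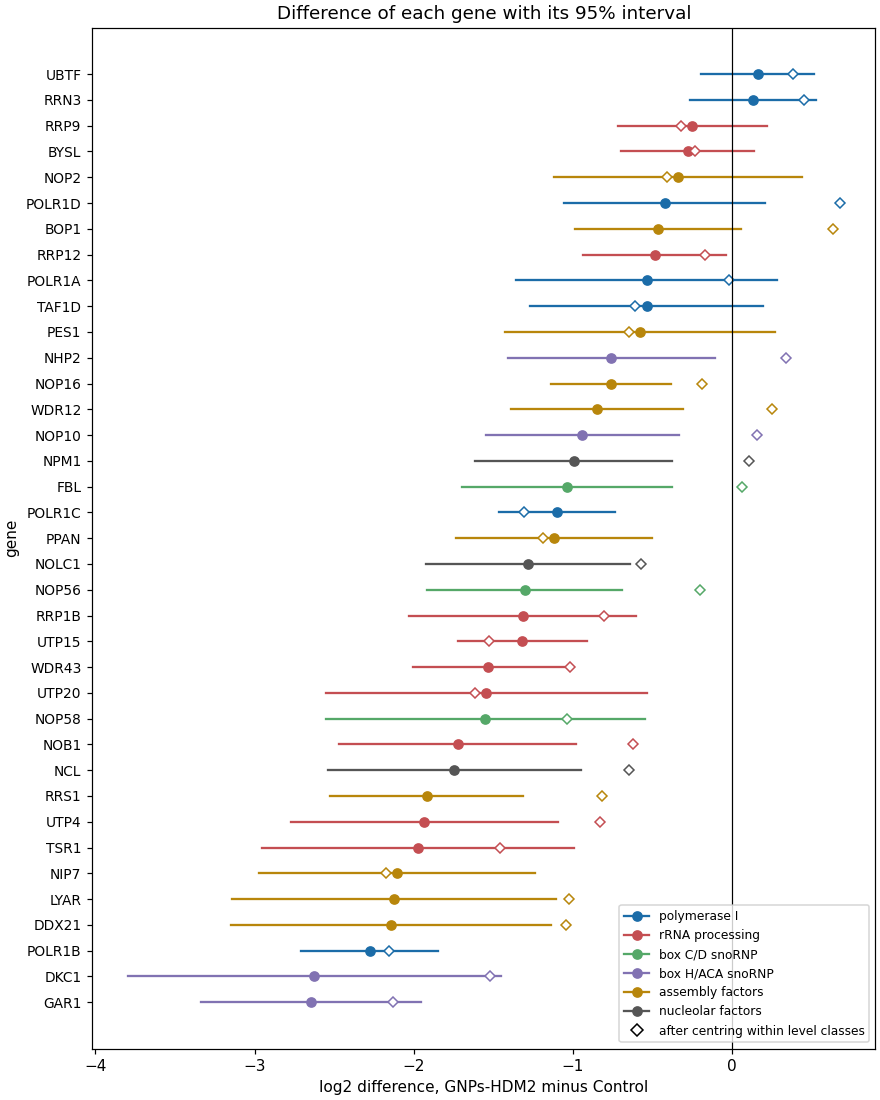
Log2 difference, GNPs-HDM2 minus Control, of each gene (filled circle) with its 95% interval (line) and the level-centred difference (open diamond), coloured by role and ordered by size. GAR1, DKC1 and POLR1B are lowest and UBTF and RRN3 highest; the diamonds of FBL, NPM1, NOP10, NHP2, WDR12, BOP1 and POLR1D lie right of 0.

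Bright probe sets of other genes also fell, while dim ones more often rose and middle ones were called about equally in both directions (25.9% higher and 25.1% lower). Of the 87 member probe sets, 49 were bright, 33 middle and 5 dim. Of the bright ones, 37 of 49 fell (75.5%), where 59.1% of all bright probe sets did, and their median was -1.52 against -1.14 for all bright probe sets. Of the middle ones, 18 of 33 fell (54.5%), where 25.1% of all middle probe sets did, and their median was -0.96 against 0.14. Of the 5 dim ones, 3 rose and 1 fell, where 33.8% of all dim probe sets rose and 0.843% fell. Level-centred, 21 of the 49 bright probe sets fell and 5 rose, against 28.6% lower and 27.6% higher among all bright ones, and 20 of the 33 middle ones fell, against 26.4%. The part of the level shift and of the added controls in the fall of single genes was not tested beyond this centring.

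**Figure D3:**
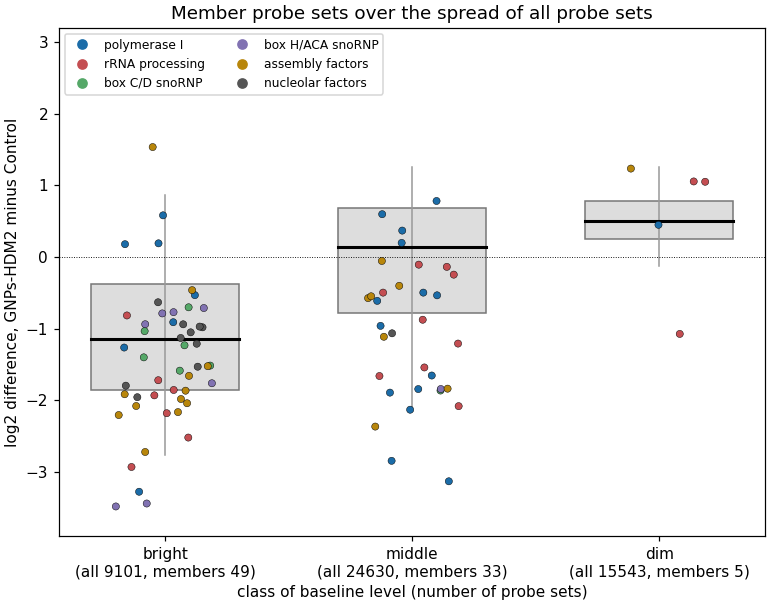
Log2 difference, GNPs-HDM2 minus Control, of the 87 member probe sets (points, coloured by role and spread sideways for legibility) over all probe sets of the bright, middle and dim classes (box from the lower to the upper quartile with the median as a thick line, thin line from the 5th to the 95th percentile). Bright members lie around a median of -1.52 and middle members around -0.96, against -1.14 and 0.14 for all probe sets, and 4 of the 5 dim members lie above 0.

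In 4 genes, probe sets were called in opposite directions as deposited, so the gene's mean joins unlike values. Over all probe sets, 23.7% fell and 24.9% rose relative to Control. The single bright probe set of BYSL, 11717444_at, had -2.87, -3.38 and -1.15 on GNPs-HDM2 arrays, against 0.39, 0.32 and 0.58 on GNPs arrays and 0.48, 0.41 and 0.52 on Control arrays, and fell by 2.93 (adjusted p = 0.00211 over all probe sets). The dim pair 11763562_at and 11763563_x_at both rose by 1.05 (adjusted p = 0.0394 and 0.039), but neither call was left after level centring, at 0.57 and 0.56 (adjusted p = 0.144 and 0.153), while the bright probe set stood at -1.83 (adjusted p = 0.000634). In NOP16 the 2 bright probe sets fell, by 1.98 and 1.53, and the dim 11761547_at rose by 1.23 (adjusted p = 0.0196). Level-centred, these stood at -0.88, -0.42 and 0.75, the -0.42 not called (adjusted p = 0.0874). For both genes the low probe sets were bright and the high ones dim, and without dim probe sets the mean of BYSL fell by 2.93 as a gene (adjusted p = 0.00169). WDR12 was different. Its probe sets 11744275_a_at and 11746789_x_at fell by 2.21 and 1.87, while 11760594_at, also read as bright, had 1.53, 2.34 and 0.63 on GNPs-HDM2 arrays, against -0.55, -0.31 and 0.17 on GNPs arrays and 0.05, -0.25 and 0.09 on Control arrays, and rose by 1.53 (adjusted p = 0.0108). The 3 kept their calls after level centring, at -1.11, -0.77 and 2.64. In RRN3, 11719605_at fell by 0.96 (adjusted p = 0.00936), 11719606_a_at rose by 0.78 (adjusted p = 0.0132) and 11719607_x_at differed by 0.58 (adjusted p = 0.08); level-centred they stood at -1.04, 0.71 and 1.68, all called. RRN3 has transcribed pseudogene copies that these probe sets may also read.

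**Figure D4:**
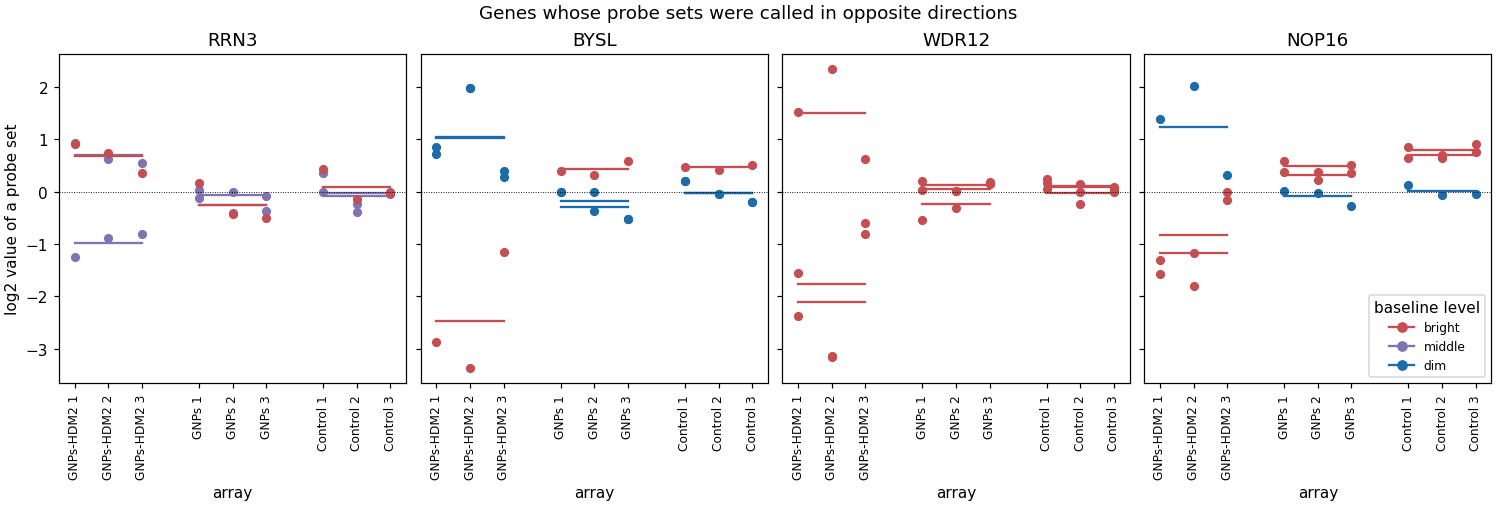
Log2 values of single probe sets (points) on the 9 arrays with the mean per group (lines) for RRN3, BYSL, WDR12 and NOP16, coloured by class of baseline level. On the GNPs-HDM2 arrays the probe sets of each gene part to both sides of 0, while on GNPs and Control arrays they lie within 1 log2 unit of it.

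The GNPs-HDM2 arrays were unequal, with a median SD of 0.65 over the members, against 0.09 on GNPs arrays and 0.22 on Control arrays. Array 3 was the least reduced for most members. Among the 25 members whose mean over arrays 1 and 2 was at least 1 log2 unit below Control, the difference on array 3 was a median of 0.35 times that of the other two, and over 3904 such genes of the whole array the median was 0.36, with quartiles of 0.21 and 0.52. The smaller difference on array 3 was thus also seen over the low genes of the whole array. Both sets were chosen by arrays 1 and 2, which can by itself lower the ratio, and its share in these medians was not tested. Of the 25 members, 6 were above that upper quartile: UTP15 at 1.02, POLR1C at 0.89, POLR1B at 0.78, RRS1 at 0.71, GAR1 at 0.66 and WDR43 at 0.58. These ratios use gene means, and in UTP15, POLR1C, POLR1B and GAR1 the probe sets ranked the 3 arrays differently. Without GNPs-HDM2 array 3, 33 of the 37 members fell relative to Control, where the share of all genes that fell was 31.8%, against 25.1% with all arrays, the additional ones being POLR1D, TAF1D, RRP9, RRP12, PES1, BOP1 and NOP2. Without Control array 3, 21 fell (18.9% of all genes), and UTP20, NOP58, NOP10, NHP2 and NPM1 no longer passed; NOP58 and NHP2 also failed without GNPs-HDM2 array 2. Without GNPs-HDM2 array 1, 21 fell as well (18.7% of all genes), with UTP20, NOP58, FBL, NHP2 and NPM1 lost.

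**Figure D5:**
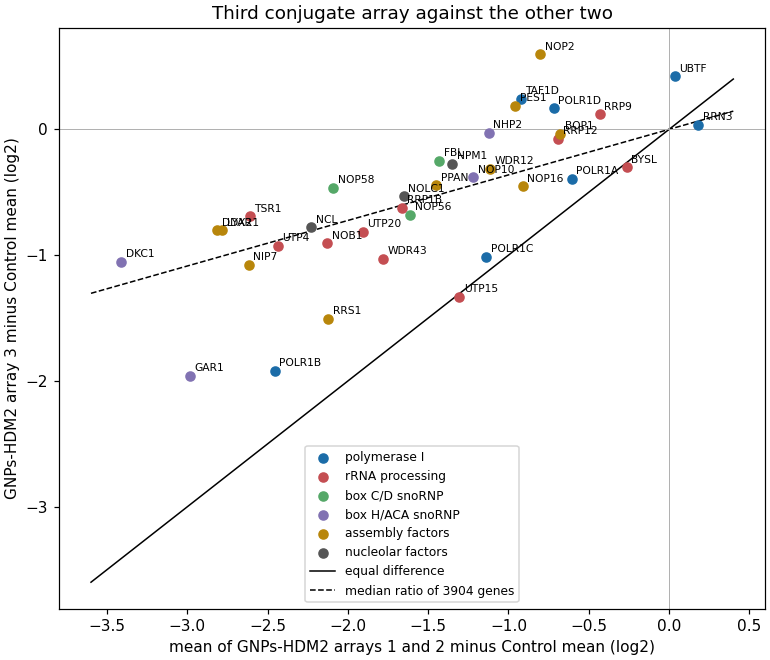
Difference from the Control mean on GNPs-HDM2 array 3 (vertical axis, log2) against the mean difference of arrays 1 and 2 (horizontal axis, log2) for each gene, with a solid line for equal differences and a dashed line at 0.36 times, the median of 3904 lowered genes. Most genes lie near the dashed line, and UTP15, POLR1C, POLR1B and GAR1 lie below it, with UTP15 on the solid line.

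With bare particles none of these genes was called. In GNPs minus Control, 0 of 37 members rose or fell by limma (0.0221% of all genes rose and 0% fell), and 0 had an unadjusted p under 0.05, where 972 of 18132 genes did. The lowest adjusted p was 0.864, and the differences ran from -0.56 for NOP2 to 0.43 for UTP20 with a median of -0.06. This fit shares 1 estimate of spread with the GNPs-HDM2 arrays, which varied most, so its errors are wide for this pair: 29 of the 37 intervals (95%) lay within 1 log2 unit of 0, and for DKC1 the interval ran from -1.44 to 0.90. With only the 6 arrays of GNPs and Control, 36 of the 37 lay within 1 log2 unit, all but UTP20 (-0.49 to 1.35), and DKC1's ran from -0.58 to 0.037. Still 0 of 37 were called (lowest adjusted p = 0.105), with 2 at an unadjusted p under 0.05, NOP2 (-0.56 ± 0.16) and NOP16 (-0.27 ± 0.09), against 27.1% of all genes. In 3 genes, NOP2, NOP16 and DDX21, all GNPs arrays lay below all Control arrays, against 21.5% of all genes.

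Set against bare particles instead of untreated cells, the conjugate gave much the same values. In GNPs-HDM2 minus GNPs, 26 of 37 members fell and 0 rose, where 29.1% of all genes fell and 43.2% rose, and the median was -1.06. After level centring 17 fell and 5 rose (POLR1D, UBTF, RRN3, NHP2 and BOP1), where 26.8% of all genes fell and 31.3% rose. This comparison shares its GNPs-HDM2 arrays with the one above. The differences were -2.76 ± 0.31 for GAR1 (adjusted p = 0.000348), -2.35 ± 0.53 for DKC1 (adjusted p = 0.00385) and -2.25 ± 0.19 for POLR1B (adjusted p = 0.000167). In 27 members the GNPs-HDM2 arrays all lay below the GNPs arrays (30.5% of all genes), and in UBTF and RRN3 all lay above (45.9%). UBTF's own probe sets were split here, where 36.3% of all probe sets rose and 28.3% fell: 11722384_s_at and 11748946_s_at rose by 0.64 and 0.79, and 11722385_a_at fell by 0.74 (adjusted p = 0.0226, 0.0081 and 0.0135 over all probe sets).

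The wider set of ribosome biogenesis genes also held more genes that fell than rose with the conjugate. Of 109 further genes, 106 were measured, and 76 fell and 4 rose relative to Control (median -1.01), or 60 and 9 after level centring. Over all genes 25.1% fell and 33.1% rose, or 22.1% and 24% after level centring. The lowest adjusted p-values among those that fell belonged to URB2 (-1.87 ± 0.19), BRIX1 (-2.90 ± 0.35), C1D (-2.86 ± 0.36) and IMP3 (-2.74 ± 0.38), which stood at -1.94, -2.09, -2.05 and -1.64 after level centring. BRIX1 builds the large subunit, IMP3 belongs to the U3 particle and C1D is a cofactor of the nuclear exosome. The 4 that rose as deposited were TAF1C, another subunit of SL1, by 0.62 (adjusted p = 0.00715), RRP7A by 0.50, TCOF1, the treacle protein of ribosomal DNA transcription, by 0.40, and the helicase DDX47 by 0.41, of which DDX47 turned to -0.07 after level centring. RRP7A, TCOF1 and DDX47 no longer passed when each array was centred on its median, and none of the 4 passed after quantile normalization. TAF1C had 0.93, 0.79 and 0.73 on GNPs-HDM2 arrays, against -0.10, -0.19 and -0.18 on GNPs arrays and 0.28, 0.24 and 0.08 on Control arrays, so no groups overlapped. Relative to GNPs, 77 fell and 5 rose, where 29.1% of all genes fell and 43.2% rose. In this comparison TAF1C rose by 0.97, NOL6, a processome protein, by 0.67, TCOF1 by 0.58 and DDX47 by 0.53 (-0.038 after level centring). The differences of URB2, BRIX1, C1D and IMP3 from GNPs were -1.70, -2.96, -3.01 and -3.05. In GNPs minus Control 0 of 106 were called, with 2 at an unadjusted p under 0.05, where 972 of 18132 genes were. rRNA probe sets on the array, which read rRNA left in the labelled material, gave -2.32, -2.70 and -2.11 for 18S on GNPs-HDM2 arrays, against 0.02 to 0.25 on GNPs arrays and -0.93, -0.68 and 0.81 on Control arrays. For 28S they gave 0.78, 0.38 and 0.49 on GNPs-HDM2 arrays, against -0.24 to -0.16 on GNPs arrays and -0.28 to 0.17 on Control arrays. The 2 rRNAs stood on opposite sides of the other groups, and how much of either reflects rRNA in the cells was not tested.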

How the data were processed

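Y79 RNA from 9 arrays, 3 a group, was measured. The authors deposited logs, read here as log2, of each probe set's deviation from its own baseline. Their software, normalization and log base are not given in the sources used here. Per the labels, biotin-labelled cRNA was made by the Affymetrix protocol. After 102 array controls were left out of 49395 rows, 49293 probe sets entered 2-sided tests by limma 3.58.1 (lmFit, eBayes; all 9 arrays) under R 4.3.3, with the R package data.table (version 1.17.8). Gene values average the probe sets of 1 symbol (44988 had 1 symbol by GEO's platform annotation, 1832 several, 2473 none). P-values were adjusted by Benjamini-Hochberg over 18132 genes, or over all probe sets, at 0.05. Errors are SE of the log2 difference unless SD is written. Level classes were read from the spacing of the stored values on the 5 nearest arrays; 19 probe sets could not be classed. An exact permutation test of 3 arrays against 3 cannot go below 0.1 and was not used.

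All members are named whatever their values; from the wider list, the 4 higher and 4 lower genes of smallest adjusted p are named per comparison. The members and lists were chosen with earlier results of these data known. The fit and the class reading were tested on simulated data. Alternatives were scaling, arrays, spread, probe sets, the replicate number as a block, and leaving out each array. The deviations of same-numbered arrays correlated at -0.03 to 0.23, not above 0.1 in every pair, so the numbers were not taken as pairs.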

Additional observations from a re-analysis of the deposited data

How the results depend on the processing

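The members that fell in GNPs-HDM2 relative to Control numbered 26 as reported and 21 to 33 when single arrays were left out (median -1.43 to -0.97), and those relative to GNPs 26 and 23 to 31 (median -1.41 to -0.82); none rose in these fits. In GNPs minus Control no member was called in any of them (median -0.11 to -0.03). Over all genes, leaving out arrays gave 3382 to 5758 lower and 3103 to 8287 higher against Control, 4513 to 6160 lower and 6211 to 8888 higher against GNPs, and 0 to 2 lower and 2 to 13 higher for GNPs minus Control. The wider list gave 57 to 88 lower and 1 to 5 higher against Control, 68 to 89 and 5 to 6 against GNPs, and 0 for GNPs minus Control. POLR1B, POLR1C, UTP4, UTP15, WDR43, TSR1, DKC1, GAR1, PPAN, NIP7, LYAR, DDX21 and NCL fell relative to Control under every setting that measured them. With the replicate number as a block, 27 members fell relative to Control, all 26 among them, and 26 relative to GNPs. Of all genes 25.5% and 29.2% fell in these 2 comparisons. The numbers were not taken as pairs, and the sources used here do not tell whether they mark a shared culture or batch.

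Level-class centring gave 2 members higher and a median of -0.62 against Control, and 17 lower, 5 higher and a median of -0.54 against GNPs, with 9 and 11 of the wider list higher. It reversed FBL (0.065), NOP10 (0.16), NHP2 (0.34), WDR12 (0.25), NPM1 (0.11), POLR1D (0.68) and DDX47 (-0.074) against Control, and POLR1D (0.79), NOP56 (0.040), FBL (0.15), NOP10 (0.10), NHP2 (0.35), BOP1 (0.91), WDR12 (0.39), NOP16 (0.10), NPM1 (0.11) and DDX47 (-0.038) against GNPs. With 1 variance per group as well, a setting chosen after seeing the data, 14 members fell against Control. Against GNPs, 16 members fell and 3 rose. Of all genes in this setting, 3118 (17.2%) fell and 2800 rose against Control, and 4316 (23.8%) fell and 4810 rose against GNPs. In GNPs minus Control 294 genes rose and 94 fell. Of the wider list, 50 fell against Control and 11 rose against GNPs. Probe sets with plain identifiers, which measure 16 members and 8354 genes in all, gave 13 members lower and 2 higher in both comparisons. They gave 26 of the wider list lower against Control, and 29 lower and 8 higher against GNPs. Of the 8354 genes, they gave 1363 lower (16.3%) and 2911 higher against Control, and 1631 lower (19.5%) and 4173 higher against GNPs. In GNPs minus Control they gave 1 gene higher. They reversed RRN3 (-0.96 and -0.92), WDR12 (1.53 and 1.73) and NOP16 (1.23 and 1.33) against Control and GNPs, since fewer of each gene's probe sets enter.

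Quantile normalization left 18 members lower and 0 higher against Control, with 32 of the wider list lower and 0 higher, and turned the split of all genes to 572 higher and 1355 lower. Against GNPs it gave 1 member and 5060 genes higher, and in GNPs minus Control 1263 genes higher and 1517 lower, with 5 and 3 of the wider list. With 2 groups only, 3087 genes and 1 of the wider list rose against Control, and 57 genes rose and 4 fell in GNPs minus Control. With 1 variance per group these were 3111 and 1, and 472 and 242, with 1 of the wider list lower. Median centring left 1 of the wider list higher against Control. Trended, robust variances left 0 genes higher in GNPs minus Control. Without dim probe sets 14275 genes were tested. Of these, 3601 genes and 2 of the wider list rose against Control, 4681 and 3 against GNPs, and 2 genes in GNPs minus Control. For the other changes the cause was not tested.

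The number of arrays, values without absolute level and an unstated log base limit these results; folds rest on base 2. Group, particle batch and array handling cannot be told apart from the labels.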
